A study of Homo sapiens with 15 samples.

Results

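The exposed cultures of BEAS-2B, a cell line derived from human bronchial epithelium, were compared between 15 weeks and 24 h of contact with PET-NPLs. PET-NPLs are nanoplastic particles made from polyethylene terephthalate, the plastic of water bottles, and every exposed culture received 50 µg/mL. The 4 samples were chosen by their labels, as the exposed samples at these time points, from the 15 samples in which RNA was sequenced. They are 2 samples at 24 h and 2 at 15 weeks, all from the batch labelled 1, and 16740 of the 28395 genes in the table of counts passed the filter on low counts and were tested. The other 11 samples are 2 unexposed controls at 24 h and 2 at 15 weeks in the same batch, and 3 controls and 4 exposed samples at 30 weeks in the batch labelled 2. Controls were grown and passaged alongside the exposed cells without particles. Within exposed cells the length of exposure, the time in culture and the number of passages cannot be told apart, and the 4 controls of batch 1, which went through the same time without particles, are set beside the exposed cells for that reason. No label says that the samples of a group came from separate cultures, so p-values measure only the spread between these samples. In bulk RNA, fewer cells of a kind and less RNA per cell cannot be told apart.

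Bronchial epithelial cells are held together by cadherin junctions and desmosomes, carry a keratin skeleton, and rest on a basement membrane of laminins and collagens to which integrins bind. Epithelial cells in culture can lose keratins and junctions and take on mesenchymal matrix and transcription factors, a shift known as the epithelial-to-mesenchymal transition. Particles enter such cells by endocytosis and end in lysosomes.

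Total counts on genes were 23143202 and 25882097 in the exposed samples at 24 h and 29232912 and 27257483 at 15 weeks, so that 1 CPM, the unit of level after TMM scaling of the libraries to a common size, stood for 23.5 to 32.2 counts. The correlation of log2 CPM between replicates, taken across genes, was 0.988 at 24 h and 0.991 at 15 weeks, and the biological coefficient of variation was 0.104 and 0.0773. The 6 most abundant small noncoding RNAs took 12.9% of the counts in both 24 h samples and 10.2% and 9.75% at 15 weeks. In the controls that share was 12.1% and 12.2% at 24 h and 11.4% and 11.3% at 15 weeks. The main count changed by less than 1.5 times when these RNAs were removed.

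Between 24 h and 15 weeks, 4349 of the 16740 genes changed in exposed cells (26.0%; edgeR's quasi-likelihood test, Benjamini-Hochberg adjusted p under 0.05). Of these, 2255 were upregulated (13.5% of genes tested) and 2094 were downregulated (12.5%). At an unadjusted p under 0.05 the number was 6148. Where each library of a group had 3 counts or fewer, the gene counts as being at the floor. Its fold is then a lower bound on the observed fold, with 3 counts put in each of these libraries and no allowance for counting error. With such genes at their bound, a change of at least 2-fold was reached by 1160 upregulated and 1057 downregulated genes, and one of at least 16-fold by 68 and 88. By this rule 217 upregulated genes were at the floor at 24 h and 143 downregulated genes were at the floor at 15 weeks. The samples of the 2 time points did not overlap in 11758 genes (70.2%), and these include 4347 of the 4349 called genes. Among genes with under 1 CPM on average 17.8% were called, against 33.2% from 1 to 10 CPM, 26.8% from 10 to 100 CPM and 22.9% over 100 CPM. Protein-coding genes were called in 27.9% of cases. Of 221 small nucleolar RNAs, 33 were downregulated and 2 upregulated, with a median log2 fold change of -0.45, and of 1431 long noncoding RNAs 179 were upregulated and 106 downregulated. The shares called, 15.8% and 19.9%, were below the 26.0% of all genes.

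The number of genes called differed between fits. All 15 samples entered the fit, and the fit of the 8 samples of batch 1 alone called 7031 of 16077 genes (43.7%). A refit without 1 exposed library leaves 1 sample in a group, and each such refit called fewer genes over all genes. The smaller counts given below for lists in such refits are to be read beside that drop. Without exposed replicate 1 or 2 at 24 h the number was 2919 or 2527, and without exposed replicate 1 or 2 at 15 weeks it was 2665 or 2526.

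**Figure D1:**
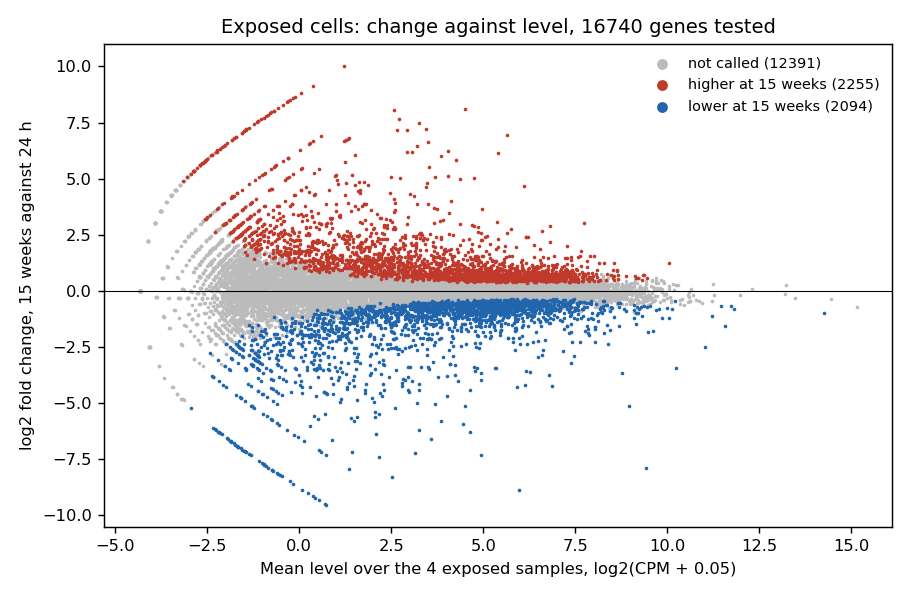
Each point is 1 of the 16740 genes tested in exposed cells, with its mean level over the 4 exposed samples on the x axis (log2 of CPM plus 0.05) and its log2 fold change at 15 weeks against 24 h on the y axis. The 2255 genes called higher are red, the 2094 called lower are blue, and the straight diagonal runs of points at low levels are genes with no counts, or nearly none, at 1 time point.

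The largest increases were of genes that were nearly silent in exposed cells at 24 h and include genes of developmental transcription factors. PRRX2, a homeobox factor of mesenchyme, rose from 0.0851 and 0.0762 CPM to 12.2 and 12.5 CPM, at least 102-fold higher. FOXF2, a forkhead factor of mesenchyme, rose from 0.0425 and 0.0381 CPM to 4.78 and 5.16 CPM, at least 41.1-fold higher. For these genes both samples at 15 weeks lay far above both at 24 h (adjusted p of 4.20e-09 and 4.89e-09).

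NCAM1 and SEMA3D reached the highest levels among the 12 largest increases. NCAM1 (Entrez gene 4684, chromosome 11, 112961420 to 113278436), the neural cell adhesion molecule, went from 0.128 and 0.191 CPM at 24 h to 42.6 and 47.6 CPM at 15 weeks (log2 fold change 8.09 with a standard error, SE, of 0.328, adjusted p = 2.51e-10). SEMA3D, a secreted guidance factor of the semaphorin family, went from 0.595 and 0.991 CPM to 94.5 and 102 CPM (log2 fold change 6.93, SE 0.277, adjusted p = 2.51e-10). CDO1, the cysteine dioxygenase that starts the breakdown of cysteine, rose from 0.0851 and 0 CPM to 11.4 and 12.3 CPM, and GULP1, an adaptor of engulfment, from 0.128 and 0 CPM to 12.9 and 13.1 CPM. These folds were at least 97.9 and 107. Others were TEX15 (at least 155-fold higher), a germ cell gene, CCDC85A (at least 125-fold), SPSB4 (at least 24.1-fold), MXRA5 (at least 20.4-fold), a secreted matrix protein, and ILDR2, with a log2 fold change of 7.21. Every one of the 12 was called in control cells as well.

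KRT7 and KRT17, keratins of simple and of stratified epithelia, were the most abundant of the 12 largest decreases. KRT7 (Entrez gene 3855, chromosome 12, 52233243 to 52255853) stood at 1349.9 and 1401 CPM in the samples at 24 h and at 6.39 and 5.29 CPM at 15 weeks (log2 fold change -7.88, SE 0.453, adjusted p = 5.47e-09). KRT17 (Entrez gene 3872, chromosome 17, 41619442 to 41624575) went from 119.8 and 133 CPM to 0.310 and 0.227 CPM (log2 fold change -8.85, SE 0.668, adjusted p = 1.07e-07). KRT7 was thus among the abundant messages at 24 h and KRT17 was left with a handful of reads at 15 weeks.

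CDH11, CHRM3, KRABD1, PCDH7, GPC4, STK26 and ZNF667 had 0 counts in both exposed samples at 15 weeks. Their levels at 24 h were between 1.91 and 3.74 CPM in single samples, so that the bounds on their folds are modest. CDH11, a cadherin of mesenchymal cells, was at least 34.02-fold lower, CHRM3, a muscarinic acetylcholine receptor, at least 33.1-fold lower, and PCDH7, a protocadherin, at least 27.1-fold lower. GPC4, a heparan sulfate proteoglycan, was at least 25.98-fold lower and STK26, a protein kinase, at least 23.7-fold lower. SLC35F3 (12.5 and 10.2 CPM at 24 h), PAK3 (7.70 and 9.91 CPM), a p21-activated kinase, and UNC5D (6.08 and 3.85 CPM), a netrin receptor, were left with 0 to 3 counts per library and were at least 119-, 92.5- and 52.2-fold lower. All 12 were also called lower in the controls.

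**Figure D2:**
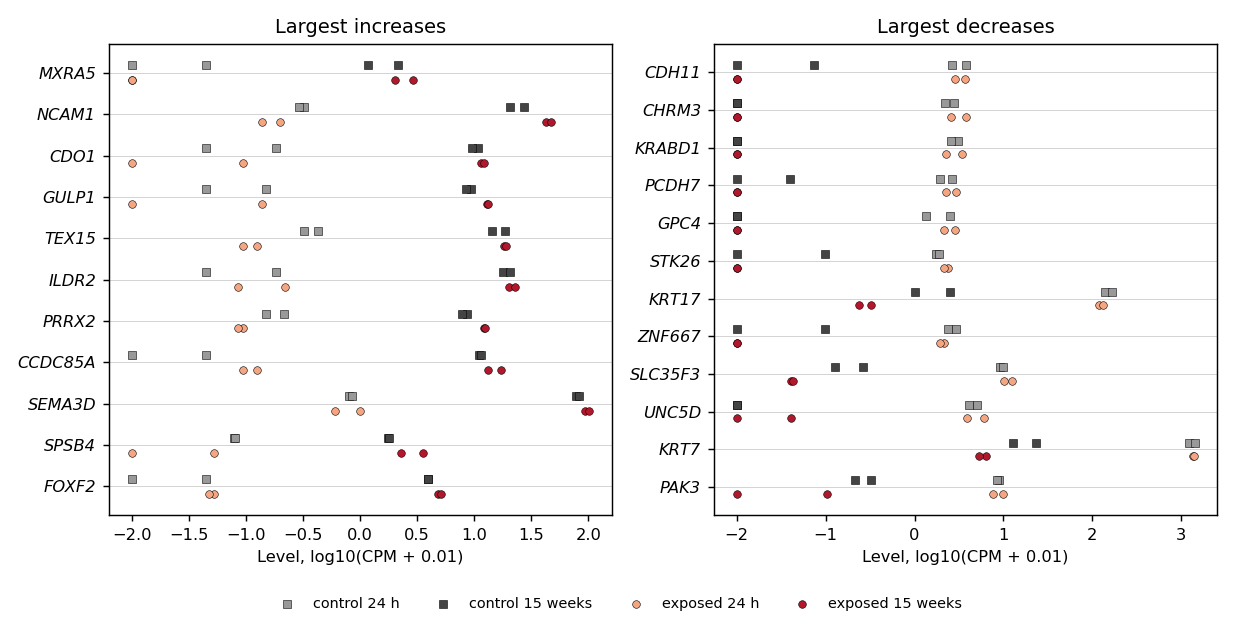
Shown are 11 of the 12 largest increases (left) and the 12 largest decreases (right), with 1 point per sample, on an axis of log10 of CPM plus 0.01, where -2 stands for 0 counts. Circles are exposed and squares are control samples, pale at 24 h and dark at 15 weeks; in each gene the 2 dark circles lie apart from the 2 pale ones, and the squares lie on the same side.

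Epithelial genes fell from a level that was already partial at 24 h. Of 11 epithelial markers, KRT8 and KRT18, the keratins of simple epithelia, were abundant at both time points. KRT8 was at 532 and 482 CPM at 24 h and at 530.2 and 646 CPM at 15 weeks, and KRT18 at 368 and 337 CPM and at 287 and 383 CPM. EPCAM, CDH1 (E-cadherin) and CLDN4, which define most epithelia, were under 1 CPM in all 4 samples, and ESRP1 and GRHL2 had 0 to 2 counts. The basal cell genes KRT5, KRT14 and TP63 were under 1 CPM as well. The 11 markers summed to 2235 to 2267 CPM at 24 h and 827 to 1037 CPM at 15 weeks, and KRT7 alone accounted for more than that drop.

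Of 12 keratins tested, 5 were downregulated and 1 was upregulated, with a median log2 fold change of -1.27, against 0.00 for all genes. KRT81, a hair keratin, fell from 19.2 and 17.2 CPM to 1.05 and 0.617 CPM (log2 fold change -4.43, adjusted p = 1.85e-05), and KRT19 from 11.2 and 10.1 CPM to 2.05 and 1.49 CPM (-2.58, adjusted p = 9.87e-05). The keratin family has near-identical pseudogenes, which makes the counts of its members less certain. Of 30 junction genes, 13 were downregulated and 3 upregulated (43.3% down, against 12.5% of all genes). CDH3, the P-cadherin of epithelia, fell from 16.6 and 19.2 CPM to 1.99 and 1.40 CPM, and the desmosomal genes PKP1, PKP2 and DSP fell by 2.82, 2.45 and 1.63 on the log2 scale (adjusted p of 8.88e-06, 2.97e-06 and 4.10e-05). In DSP, the desmoplakin that ties keratin filaments to desmosomes, this was a change from 83.3 and 97.5 CPM to 29.8 and 28.4 CPM.

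Of 10 airway epithelial regulators tested, 5 were downregulated and 1 was upregulated; the other 12 of the list were too low to test. FOXA1, a pioneer factor of endoderm, went from 9.87 and 6.63 CPM to 0.124 and 0.0649 CPM (log2 fold change -6.37, SE 0.667, adjusted p = 3.45e-06). ESRP2, an epithelial splicing regulator, fell from 13.3 and 15.3 CPM to 0.776 and 1.23 CPM, and SOX9, a factor of airway progenitors, from 11.95 and 12.9 CPM to 2.54 and 1.66 CPM. Both samples at 15 weeks lay below both at 24 h in all 3. KLF5 and ELF3 fell by 1.30 and 2.77 on the log2 scale (adjusted p of 5.31e-04 and 0.0029).

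The factors that drive the epithelial-to-mesenchymal transition moved in both directions. Of 10 tested, 3 were upregulated, 2 were downregulated and 5 were not called. TCF4 rose from 2.81 and 3.09 CPM to 23.02 and 27.9 CPM (log2 fold change 3.11, adjusted p = 5.47e-09) and ZEB2 from 10.6 and 10.6 CPM to 48.9 and 53.4 CPM (2.26, adjusted p = 9.27e-08). SNAI2, by contrast, fell from 13.9 and 17.8 CPM to 3.72 and 3.63 CPM (-2.10, adjusted p = 6.61e-06), and ZEB1 fell from 49.04 and 50.05 CPM to 31.9 and 29.6 CPM (-0.69, adjusted p = 9.70e-04). The mesenchymal filament gene VIM was high throughout, at 1433 and 1524 CPM at 24 h and 1151 and 1084 CPM at 15 weeks, as was the surface marker THY1, at 219 and 187 CPM at 24 h and 192 and 212 CPM at 15 weeks.

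Of the other cell types a culture could hold, 12 fibroblast markers summed to 3601 to 4268 CPM at 24 h and 1594 to 1627 CPM at 15 weeks, of which FN1 and VIM made up the most, while the fibroblast genes DCN and LUM had 0 counts in all 4 samples. Most of the drop in this sum was FN1, which went from 1899 and 2511 CPM to 213 and 199.8 CPM. PDGFRB went from 19.4 and 14.8 CPM to 57.0 and 77.1 CPM. Of 10 fibroblast markers tested, 1 was upregulated, 2 were downregulated and 7 were not called. The 8 endothelial markers summed to at most 1.46 CPM. Among blood genes CD3E, HBB and PPBP had 0 counts in all 4 samples and PTPRC was under 1 CPM. CD14 went from 7.15 and 4.803 CPM at 24 h to 2.14 and 2.73 CPM at 15 weeks. CD68 was at 6.81 and 6.67 CPM at 24 h and at 6.73 and 9.02 CPM at 15 weeks. Of the 2 blood genes tested, 1 was downregulated and 1 was not called. Of 9 secretory and ciliated markers SCGB3A1 had 0 counts, and TUBB4B, a tubulin that is not specific to ciliated cells, made up most of the list's sum of 694 to 838 CPM at 24 h and 966 to 972 CPM at 15 weeks. Of the 5 tested, 2 were upregulated and 3 were not called. DNAH5 went from 2.47 and 2.25 CPM to 6.79 and 5.58 CPM, and TPPP3 from 0 and 0 counts to 15 and 5 counts. Of 8 basal cell markers, 1 was upregulated and 3 were downregulated. Their sums were 1490 to 1562 CPM at 24 h and 1299 to 1521 CPM at 15 weeks. Most of this was DST alone, at 1125 and 1076 CPM at 24 h and 1189 and 1426 CPM at 15 weeks. The 8 alveolar markers summed to 15.4 to 18.1 CPM and 14.02 to 15.2 CPM.

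Many genes of the extracellular matrix changed, in both directions. Of 27 collagens tested, 10 were upregulated and 7 were downregulated (63.0% called, against 26.0% of all genes). COL6A2 and COL6A1, chains of the microfibrillar collagen VI, and COL18A1, a basement membrane collagen, led the increases. COL6A2 (Entrez gene 1292, chromosome 21, 46098112 to 46132848) went from 5.27 and 5.11 CPM to 134 and 131 CPM (log2 fold change 4.67, SE 0.220, adjusted p = 7.35e-10). COL6A1 went from 13.01 and 14.4 CPM to 98.1 and 89.7 CPM and COL18A1 from 26.2 and 26.1 CPM to 168 and 165 CPM. All 3 genes lie on chromosome 21, whose genes had a median log2 fold change of 0.53, and their own changes of 4.67, 2.77 and 2.67 exceeded it. COL8A1, a short-chain collagen, fell from 139 and 129 CPM to 6.70 and 7.95 CPM (log2 fold change -4.20, adjusted p = 6.13e-08).

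Most of the called laminin chains and integrins were lower. Of 10 laminin chains 6 were downregulated and 1 upregulated (median log2 fold change -0.86), and of 17 integrins 8 were downregulated and 4 upregulated (median -0.52). LAMB3, a chain of the laminin that anchors epithelia, fell from 58.8 and 59.3 CPM to 15.3 and 12.6 CPM. ITGA6 and ITGB4, the integrin pair of hemidesmosomes that binds this laminin, fell from 382 and 364 CPM to 104 and 89.6 CPM and from 54.6 and 48.9 CPM to 4.84 and 4.64 CPM. In all 3 genes the samples at 15 weeks were below those at 24 h (adjusted p of 3.72e-05, 1.56e-05 and 6.17e-05). LAMA4, a laminin chain of vessels and mesenchyme, fell by 3.75 on the log2 scale, while ITGA4, a fibronectin and VCAM1 receptor subunit, rose from 0.893 and 0.800 CPM to 8.22 and 8.05 CPM (log2 fold change 3.26, adjusted p = 8.26e-05).

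Of 31 matricellular and elastic fibre genes, 13 were downregulated and 4 upregulated. FN1 (Entrez gene 2335, chromosome 2, 215360865 to 215436068), which codes for fibronectin, was at 1899 and 2511 CPM at 24 h and at 213 and 199.8 CPM at 15 weeks (log2 fold change -3.42, SE 0.257, adjusted p = 1.05e-07). LTBP2, a binding protein of elastic fibres, went from 50.7 and 63.6 CPM to 3.78 and 3.50 CPM. CCN3 and THBS2, matricellular proteins that regulate adhesion, went the other way, from 0.383 and 0.381 CPM to 11.6 and 13.9 CPM and from 29.1 and 24.2 CPM to 222 and 173 CPM. Fibronectin was the most abundant of these messages at 24 h, and both samples at 15 weeks were far below both at 24 h.

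Of 27 matrix proteases and their inhibitors 17 were downregulated (63.0%, against 12.5% of all genes) and 3 were upregulated, with a median log2 fold change of -0.75. MMP3, a stromelysin, fell from 9.31 and 10.6 CPM to 0.620 and 0.779 CPM (log2 fold change -3.83, adjusted p = 5.11e-05) and MMP24, a membrane-type metalloprotease, from 24.2 and 21 CPM to 5.93 and 4.45 CPM (-2.12, adjusted p = 1.63e-04). MMP1, a collagenase, went from 7.40 and 9.91 CPM to 0.900 and 0.909 CPM (-3.25, adjusted p = 0.0123), and its call was lost without exposed replicate 2 at 24 h and without either exposed replicate at 15 weeks (adjusted p of up to 0.0868). With 1 of the 4 exposed libraries left out, 10 to 13 members of this list were called lower, 8 to 12 of the matricellular list, 3 to 5 laminins and 6 to 7 integrins.

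AP-1, the transcription factor of FOS and JUN proteins, acts on many protease promoters, and the start regions of genes were therefore searched for its site. In windows of 300 bases around the starts of 12504 tested genes (RefSeq, GRCh38.p14, the first window listed for each gene), TGACTCA was found on either strand in 3.44% of upregulated, 3.90% of downregulated and 3.43% of all tested genes. The cyclic AMP response element TGACGTCA was in 2.52%, 3.72% and 3.10%, the E-box CACGTG in 8.25%, 10.2% and 9.63%, and the TEAD site CATTCC in 12.3%, 11.4% and 11.3%. Of all 35116 windows of this length, 4.95% held TGACTCA, 1.85% TGACGTCA, 7.26% CACGTG and 14.03% CATTCC. Of the 15 protease and inhibitor genes with a window, 1 held TGACTCA (PLAUR, the urokinase receptor) and 1 held TGACGTCA (ADAMTS6, a secreted metalloprotease); the ADAMTS6 window also held CACGTG and CATTCC. These 2 windows, chosen after the values were seen, are printed because they hold a site and their genes fell, PLAUR from 51.8 and 62.2 CPM to 34.6 and 32.1 CPM (log2 fold change -0.77, adjusted p = 0.0126) and ADAMTS6 from 66.6 and 75.5 CPM to 32.8 and 30.2 CPM (-1.17, adjusted p = 0.00452). Capitals mark the site, which in PLAUR reads on the opposite strand, and both sequences run 5′ to 3′ along the gene. The PLAUR window is at chr19:43670120-43670419 on the minus strand and the ADAMTS6 window at chr5:65481871-65482170 on the minus strand. ADAMTS6 thus lies among 50 consecutive tested genes of chromosome 5, from SNX18 to CCNB1, with a median log2 fold change of -0.72 (-0.62 in controls). The part of that shift in the fall of ADAMTS6 was not tested.
PLAUR: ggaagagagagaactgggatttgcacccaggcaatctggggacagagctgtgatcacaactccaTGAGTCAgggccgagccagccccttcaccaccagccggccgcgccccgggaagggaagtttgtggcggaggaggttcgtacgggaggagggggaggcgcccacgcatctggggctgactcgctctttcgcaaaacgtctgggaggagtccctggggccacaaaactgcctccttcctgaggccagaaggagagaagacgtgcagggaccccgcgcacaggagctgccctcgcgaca
ADAMTS6: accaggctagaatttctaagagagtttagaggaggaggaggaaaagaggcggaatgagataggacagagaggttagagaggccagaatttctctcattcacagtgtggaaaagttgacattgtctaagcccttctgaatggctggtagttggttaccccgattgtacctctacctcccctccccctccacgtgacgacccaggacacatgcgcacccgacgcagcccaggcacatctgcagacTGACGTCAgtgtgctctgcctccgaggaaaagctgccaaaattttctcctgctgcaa

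More genes of the growth factor systems fell than rose. Of 36 genes of the EGF and FGF systems, 15 were downregulated and 5 upregulated (41.7% down), and of 14 genes of the IGF system 5 were downregulated and the other 9 were not called. EREG, an EGF receptor ligand, fell from 19.3 and 15.6 CPM to 0.0931 and 0.130 CPM (log2 fold change -7.24, adjusted p = 7.79e-08), and FGF5, a fibroblast growth factor, from 16.2 and 14.9 CPM to 1.49 and 0.422 CPM (-4.01, adjusted p = 2.67e-05). MST1R, the RON receptor, fell from 7.83 and 7.89 CPM to 0.403 and 0.0974 CPM (-4.93, adjusted p = 7.64e-06). IGFBP3, which binds insulin-like growth factors outside the cell, fell from 721 and 896 CPM to 68.2 and 61.4 CPM, IGFBP4 from 153 and 185 CPM to 24.9 and 28.9 CPM, and IRS1, the adaptor of their receptor, from 47.6 and 42.96 CPM to 8.78 and 9.12 CPM. IGFBP3 was the most abundant of them at 24 h, and the 5 calls in the IGF system were kept with each exposed library left out, while 10 to 12 genes of the EGF and FGF systems were then called lower.

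Of 24 genes of the TGF-beta pathway 10 were downregulated and 1 was upregulated, the median of the list being -0.06 on the log2 scale, of 20 genes of the BMP pathway 5 and 3, and of 31 Wnt genes 6 and 5. FSTL3 and PMEPA1, inhibitors that TGF-beta family signals induce, fell by 2.26 and 1.80 on the log2 scale, while INHBB, an activin subunit, rose from 0.170 and 0.267 CPM to 2.98 and 1.43 CPM. ID1, a target of BMP signals, fell from 457 and 416 CPM to 86.2 and 93.4 CPM and GREM1, a secreted BMP antagonist, from 237 and 269 CPM to 70.2 and 66.9 CPM. BAMBI, a decoy receptor, rose from 3.74 and 3.70 CPM to 16.97 and 19.99 CPM (log2 fold change 2.31, adjusted p = 1.80e-06). In the Wnt list the receptor FZD8 was left with 1 count in each library at 15 weeks (at least 24.5-fold lower), and the ligand WNT7B fell by 3.13 on the log2 scale, whereas FZD6 rose from 23.4 and 21.9 CPM to 128 and 113 CPM and the antagonist SFRP1 from 12.2 and 8.84 CPM to 57.1 and 58.6 CPM.

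Immediate early genes, which respond within minutes to growth signals, moved in 1 direction: 13 of 24 were downregulated and the other 11 were not called (54.2% down, median log2 fold change -0.76), and 9 to 12 with 1 exposed library left out. DUSP4 and DUSP1, phosphatases that switch off MAP kinases, fell from 157 and 161 CPM to 21.5 and 19.6 CPM and from 75.7 and 63.8 CPM to 18.7 and 16.7 CPM. IER3 fell from 49.8 and 45.02 CPM to 8.004 and 8.70 CPM and JUN, a subunit of AP-1, from 131 and 171 CPM to 69.2 and 49.9 CPM (log2 fold change -1.34, adjusted p = 1.03e-04). Of 26 targets of YAP and TAZ, cofactors that respond to cell tension, 10 were downregulated and 2 upregulated, and of 32 smooth muscle and cytoskeletal genes 12 and 2. TAGLN, an actin-binding protein, fell from 234 and 265 CPM to 43.9 and 34.4 CPM and ACTN1, the alpha-actinin of stress fibres, from 372 and 416 CPM to 131 and 130.04 CPM, while MYLK, the kinase of myosin light chains, rose from 64.2 and 59.8 CPM to 258 and 239 CPM. F3, the tissue factor gene, fell from 442 and 529 CPM to 149 and 115 CPM. With 1 exposed library left out, 7 to 8 YAP and TAZ targets and 7 to 9 cytoskeletal genes were called lower.

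Of the hypoxia-inducible and glycolytic genes, 18 of 36 were downregulated and 2 upregulated (50.0% down, median log2 fold change -0.48), and 11 to 14 were called lower with 1 exposed library left out. CA9, a carbonic anhydrase that hypoxia induces, fell from 11.7 and 14.4 CPM to 0.776 and 0.714 CPM (log2 fold change -4.12, SE 0.232, adjusted p = 4.93e-09). VEGFA, the vascular growth factor, fell from 39.3 and 38.4 CPM to 7.48 and 7.82 CPM, and the vasodilator peptide gene ADM from 100.04 and 116 CPM to 21.1 and 20.7 CPM. Of 46 nuclear genes of oxidative phosphorylation 3 were upregulated and 1 was downregulated (8.70% called, against 26.0% of all genes), with a median log2 fold change of -0.03, and the fit of the 8 samples of batch 1 gave 11 and 7.

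Antioxidant and detoxifying genes were split. Of 38 NRF2 targets and antioxidant genes, 10 were upregulated and 6 downregulated. HMOX1, the heme oxygenase, fell from 124 and 122 CPM to 23.5 and 24.5 CPM (log2 fold change -2.36, adjusted p = 9.61e-08), while SLC7A11, the cystine importer, rose from 23.01 and 19.6 CPM to 67.04 and 79.3 CPM (1.78, adjusted p = 5.11e-07) and ME1, which makes NADPH, from 23.6 and 22.1 CPM to 54.8 and 59.1 CPM. Among 19 AHR targets and xenobiotic enzymes 6 rose and 6 fell. CYP1B1, a cytochrome P450 that AHR induces, fell from 254 and 194 CPM to 9.99 and 13.6 CPM (-4.25, adjusted p = 6.89e-09), and ALDH1A3, a retinaldehyde dehydrogenase, from 294 and 308 CPM to 33.3 and 32.3 CPM (-3.20, adjusted p = 7.13e-10), while GSTM3 rose from 29.7 and 26.8 CPM to 78.4 and 86.3 CPM. Of 7 metallothioneins 3 fell, and MT2A, the most abundant of the 3, went from 87.1 and 75.4 CPM to 36.8 and 33.8 CPM. With 1 exposed library left out the upregulated members were 5 to 9 in the NRF2 list and 2 to 3 in the AHR list, 2 to 4 genes of the NRF2 list were called lower, and 1 metallothionein was called lower.

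Of 31 targets of ER stress and ATF4, 7 were downregulated and 4 upregulated, and the amino acid transporter genes lay on both sides. SLC7A5 and SLC3A2, the chains of the large neutral amino acid transporter, fell from 629 and 486 CPM to 109 and 106 CPM and from 468 and 505 CPM to 172 and 165 CPM, and ASNS, the asparagine synthetase, from 15.99 and 19.6 CPM to 4.16 and 5.22 CPM. PHGDH, the entry enzyme of serine synthesis, rose from 27.9 and 23.9 CPM to 67.2 and 78.2 CPM. Of 18 heat shock chaperones 3 were upregulated (16.7%, near the 13.5% of all genes), led by HSPB8 (2.34 on the log2 scale, adjusted p = 7.40e-07), and 15 were not called. Of 62 cytosolic ribosomal protein genes 4 were downregulated and 58 were not called in the fit of all 15 samples, against 34 downregulated and 5 upregulated in the fit of the 8 samples of batch 1, and the median log2 fold change was -0.34. Ribosomal protein genes have many processed pseudogenes, so their counts are uncertain.

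Of 25 genes of cholesterol synthesis 11 rose (44.0%, against 13.5% of all genes) and 1 fell, with a median log2 fold change of 0.31, and 5 to 7 were called higher with 1 exposed library left out. HMGCS1, an early enzyme of the pathway, rose from 91.1 and 82.98 CPM to 253 and 236 CPM (log2 fold change 1.49, SE 0.151, adjusted p = 2.50e-06). FDFT1, the squalene synthase, rose from 129 and 129 CPM to 260.03 and 289 CPM, and INSIG1, which restrains the pathway when sterols are plentiful, from 81.1 and 64.8 CPM to 162 and 159 CPM. In these 3 genes both samples at 15 weeks exceeded both at 24 h. Of 17 genes of fatty acid synthesis 2 rose and 1 fell.

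More interferon-stimulated genes rose than fell, and more cytokine genes fell than rose. Of 40 interferon-stimulated genes, 12 were upregulated and 2 downregulated (30.0% up, median log2 fold change 0.17), and 9 to 12 were called higher with 1 exposed library left out. MX1, an antiviral GTPase, rose from 3.10 and 2.48 CPM to 17.3 and 16.1 CPM (log2 fold change 2.59, adjusted p = 1.99e-06), and its neighbour on chromosome 21, MX2, from 0 and 0.0381 CPM to 2.36 and 2.63 CPM, at least 20.6-fold higher. XAF1 rose from 0.255 and 0.191 CPM to 6.33 and 6.62 CPM, HERC5, a ligase for ISG15, from 2.13 and 2.67 CPM to 12.3 and 12.1 CPM, and GBP2 from 2.17 and 3.01 CPM to 10.4 and 12.2 CPM. Of 16 genes of MHC class I presentation 1 rose and 2 fell.

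Of 23 cytokines and chemokines tested, 10 were downregulated and 2 upregulated (median log2 fold change -0.93), and 12 more of the list were too low to test. CXCL8, the neutrophil chemokine, fell from 4.34 and 3.81 CPM to 0.589 and 0.0649 CPM (log2 fold change -3.60, adjusted p = 0.00238), CXCL1 from 4.68 and 3.05 CPM to 0.372 and 0.325 CPM (-3.45, adjusted p = 3.06e-05), and LIF, a cytokine of the IL6 family, from 8.34 and 9.30 CPM to 1.09 and 0.714 CPM (-3.28, adjusted p = 7.25e-06). IL6 itself went from 2.51 and 1.18 CPM to 0.589 and 0.292 CPM (-2.04, adjusted p = 0.0078), and was not called without exposed replicate 1 at 24 h or exposed replicate 2 at 15 weeks (adjusted p of up to 0.121).

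Of 30 uptake genes 7 were upregulated and 4 downregulated (36.7% called, against 26.0% of all genes). CAV1 (Entrez gene 857, chromosome 7, 116525009 to 116561185) and CAV2, the caveolins that coat caveolae, fell from 1261 and 1148 CPM to 349 and 352 CPM (log2 fold change -1.78, SE 0.182, adjusted p = 2.79e-06) and from 276 and 251 CPM to 120.4 and 102 CPM. DAB2, a clathrin adaptor, rose from 18.5 and 16.5 CPM to 60.6 and 65.5 CPM, and DNM1, a dynamin that cuts vesicles from the membrane, from 14.5 and 15.6 CPM to 48.8 and 54.8 CPM. Of 44 lysosomal and autophagy genes 8 were upregulated and 4 downregulated (27.3% called, near the 26.0% of all genes), among them GPNMB, a glycoprotein of lysosomes, which rose from 12.7 and 15.6 CPM to 89.3 and 82.1 CPM, LAMP2, a lysosomal membrane protein, from 121 and 88.9 CPM to 239 and 226 CPM, and GABARAPL1, an autophagosome protein, from 7.61 and 4.12 CPM to 20.5 and 25.1 CPM. NPC2, which hands cholesterol out of lysosomes, fell from 84.04 and 84.7 CPM to 36.7 and 33.4 CPM. With 1 exposed library left out, 2 to 3 uptake genes and 5 to 6 lysosomal genes were called higher, and 2 to 4 and 1 to 3 lower.

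In the fit of all 15 samples a smaller share of cell cycle genes was called than of all genes (26.0%). Of 30 genes of the G2 and M phases 3 were downregulated and 27 were not called (10% called). Of 40 replication genes 6 were upregulated and 2 downregulated (20% called), and of 55 DNA repair genes 8 and 2 (18.2%). The upregulated shares of the last 2 lists, 15% and 14.5%, were near the 13.5% of all genes. KIF20A, a mitotic kinesin, fell from 436 and 462 CPM to 270.3 and 267 CPM (log2 fold change -0.74, adjusted p = 0.00478), and POLQ, the polymerase of microhomology repair, rose from 107 and 110.3 CPM to 190.1 and 180.5 CPM (0.77, adjusted p = 0.00158). POLQ lies on chromosome 3, among 50 consecutive tested genes from ATP6V1A to PDIA5 with a median of 0.84 (0.57 in controls). The part of that shift in the rise of POLQ was not tested. Of 26 damage-response targets 5 fell and 2 rose (26.9% called, near the 26.0% of all genes), among them PLK2, a stress-induced kinase, which went from 1142 and 1059 CPM to 314 and 309.96 CPM. Of 56 replication-dependent histone genes 9 fell (16.1%, against 12.5% of all genes) and 1 rose; H4C6 fell from 133 and 165 CPM to 35.9 and 28.3 CPM and H4C9 from 77.8 and 104 CPM to 25.1 and 16.8 CPM. Histone genes of 1 class share near-identical coding sequence, so reads may be split between them. Their calls numbered 4 to 7 with 1 exposed library left out, replication genes called higher numbered 1 to 2, repair genes called higher 3 to 6 and damage-response targets called lower 2 to 4. The fit of the 8 samples of batch 1 called 43.7% of all genes. In it, 11 genes of the G2 and M phases were called lower and 1 higher. Of the replication genes 11 were called higher and 5 lower, and of the repair genes 18 higher and 14 lower.

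Of 31 HOX genes and TALE cofactors tested, 11 were upregulated and 3 downregulated (35.5% up), and 8 to 10 were called higher with 1 exposed library left out. With at least 10 counts required in every sample, which leaves fewer of these genes in the test, 2 were called higher. HOXA13, the most distal gene of its cluster, went from 0.0851 and 0.114 CPM to 4.53 and 3.02 CPM, at least 31.2-fold higher, and HOXA11 from 0.128 and 0 CPM to 1.99 and 2.99 CPM, at least 20.5-fold higher. HOTAIRM1, a noncoding RNA of the same cluster, rose from 1.49 and 0.915 CPM to 5.34 and 5.16 CPM. HOXA13 and HOXA11 thus rose from near silence to a few CPM. The median of the list was 1.11 on the log2 scale, and 0.75 with the genes at the floor set to their bounds.

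Of 16 imprinted genes 7 were downregulated and 9 were not called, with 3 to 5 called when 1 exposed library was left out. PEG10, a retrotransposon-derived gene, fell from 324 and 296 CPM to 35.2 and 46.9 CPM (log2 fold change -2.92, adjusted p = 4.09e-07) and MEST, a hydrolase, from 370.2 and 419 CPM to 142 and 118 CPM (-1.61, adjusted p = 3.03e-06). Of 20 skeletal muscle genes tested 2 rose and 4 fell, and of 20 long noncoding RNAs 3 rose and 5 fell. Among 8 abundant small noncoding RNAs, RN7SL2, a signal recognition particle RNA, went from 23992 and 27852 CPM to 13483 and 12631 CPM (-0.99, adjusted p = 0.0161); it has a near-identical copy, RN7SL1, and its call was lost without exposed replicate 2 at 24 h and without either exposed replicate at 15 weeks.

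The study named 14 putative biomarkers from its gene panels for the epithelial-to-mesenchymal transition and lung cancer. It chose them for differences from controls at 15 and 30 weeks, in samples of this series. Neither their counts nor tests of that difference are therefore independent evidence. Between 24 h and 15 weeks of exposure, 6 of them fell, 1 rose and 7 were not called (edgeR, Benjamini-Hochberg), while in the fit of the 8 samples of batch 1 8 were called lower and 4 higher. EFEMP2, a protein of elastic fibres, fell from 20.2 and 18.3 CPM to 3.51 and 1.82 CPM (log2 fold change -2.85, SE 0.267, adjusted p = 1.11e-06), and JUN is given above. TNC, the matrix protein tenascin, went from 423 and 483 CPM to 204 and 276 CPM (-0.92, adjusted p = 0.0076), ITGB8, which activates latent TGF-beta, from 98.6 and 58.2 CPM to 30.3 and 56.8 CPM (-0.85, adjusted p = 0.0389), LGALS1, a galectin, from 794 and 754 CPM to 471 and 464 CPM, and ADAM12, a membrane protease, from 97.6 and 96.5 CPM to 59.1 and 62.4 CPM. RB1, the retinoblastoma gene, rose from 112 and 94.5 CPM to 154 and 156 CPM (0.59, adjusted p = 0.00724). It lies on chromosome 13, whose tested genes had a median log2 fold change of 0.41, and the part of that shift in its rise was not tested. Of the biomarkers called, EFEMP2 and JUN kept their calls with each exposed library left out. ITGB8 lost its call without exposed replicate 1 at 24 h or exposed replicate 1 at 15 weeks, TNC without exposed replicate 2 at 24 h or exposed replicate 1 at 15 weeks, RB1 without exposed replicate 2 at 24 h, and LGALS1 and ADAM12 whichever of the 4 exposed libraries was left out, so that 2 to 4 of the 14 were then called lower. With upper-quartile scaling ITGB8 and ADAM12 were not called. Those not called in the fit of all 15 samples were DKK1 (0.74 on the log2 scale), FBN1 (0.36), COL1A1 (-1.21), GPC1 (-0.21), FGF2 (-0.079), VCAN (1.30) and MET (-0.45), with adjusted p from 0.0675 to 0.822.

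The direction of change also differed between chromosomes. Of 508 tested genes on chromosome 14, 240 were downregulated and 14 upregulated, with a median log2 fold change of -0.63. In the exposed samples at 15 weeks the median level of these genes relative to the mean of the 24 h samples was -0.61 on the log2 scale in each sample. All 10 windows of 50 consecutive tested genes on this chromosome had a median under 0. FOXA1, LTBP2, ACTN1, NPC2 and RN7SL2 lie on chromosome 14, and the part of this shift in their values was not tested. Chromosomes 4 and 18 followed, with medians of -0.43 (187 of 561 genes lower) and -0.31 (68 of 227 lower).

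Higher medians were found on chromosome 21 (0.53, 68 of 179 genes higher and 8 lower), chromosome 13 (0.41, 80 of 308 higher), chromosome 9 (0.38, 209 of 679 higher) and chromosome 3 (0.27, 267 of 925 higher). On chromosome 3 the window with the highest median held the 50 tested genes from DBR1 to WWTR1 (138160988 to 149724788), with a median of 0.90 and 31 genes called higher. On chromosome X the 50 tested genes from PLCXD1 to ZRSR2 (276356 to 15823260), the first of which are in the pseudoautosomal region, had a median of 0.85. On chromosome 5 the window from SNX18 to CCNB1 (54517759 to 69178245) had a median of -0.72, with 22 called lower and 1 higher. Controls gave -0.67 on chromosome 14, -0.40 on chromosome 4, -0.36 on chromosome 18, 0.21 on chromosome 21, 0.20 on chromosome 13, 0.31 on chromosome 9 and 0.20 on chromosome 3. These medians are descriptions without a test, since genes of 1 chromosome are not replicates.

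**Figure D3:**
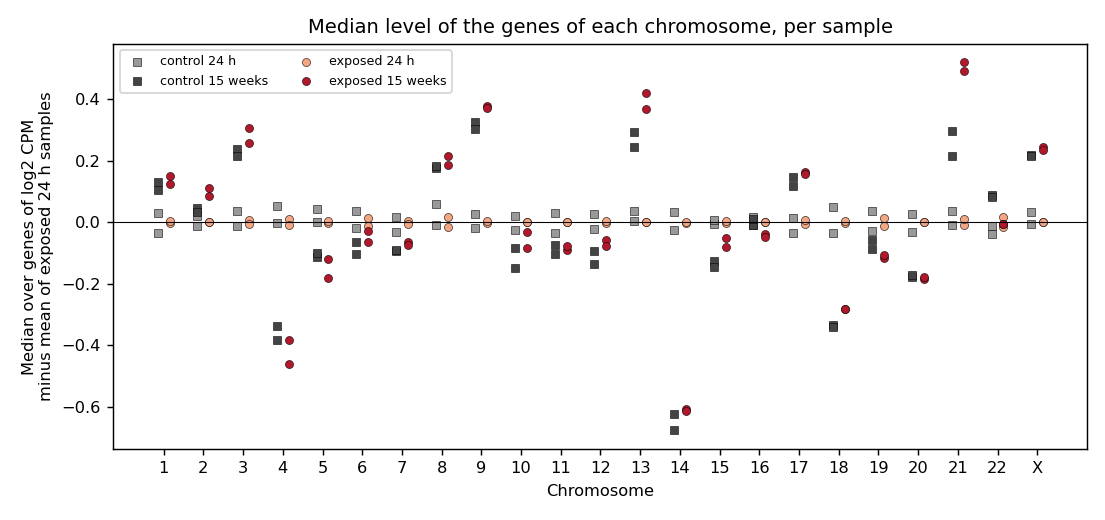
For each chromosome, points give 1 sample's median over the tested genes of log2 CPM minus the mean of the 2 exposed samples at 24 h, which by construction lie near 0. Circles are exposed and squares are control samples, pale at 24 h and dark at 15 weeks; the dark symbols lie lowest on chromosome 14, and on chromosomes 13 and 21 the dark circles lie above the dark squares.

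The same comparison in control cells, which shares no sample with that in exposed cells, called 4174 genes (24.9%), 2133 higher and 2041 lower. Called in both were 3156 genes, which is 72.6% of the genes called in exposed cells and 75.6% of those called in controls, and all 3156 moved in the same direction. Of the 4349 genes called in exposed cells, 4292 (98.7%) had the same sign in controls, against 80.6% of all genes tested. Across the 13279 genes with at least 1 CPM the log2 fold changes had a Pearson correlation of 0.927, given as a description because genes are not independent. In exposed cells 2217 genes were called with at least a 2-fold change. Their median ratio of the control to the exposed log2 fold change was 0.873. Of them, 1750 changed in controls to within 2-fold of the change in exposed cells. Choosing genes by a large exposed change by itself lowers such a ratio, so it does not show a smaller change in controls.

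The difference between the 2 changes was tested directly. In the fit of all 15 samples 0 genes were called for it (edgeR; 644 at an unadjusted p under 0.05, smallest adjusted p 0.999912), and DESeq2 and limma-voom called 0 as well. The precision of this test was limited: the median standard error of the difference was 0.33, and its 95% interval lay within a 2-fold difference for 8470 genes (50.6%), which include 2322 of the 4349 called in exposed cells. For the other genes the interval reached a 2-fold difference or more. In the fit of the 8 samples of batch 1 alone, 4 genes of 16077 were called for the difference (0.0249%), and limma-voom with 2 surrogate variables called 5.

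The counts in the lists can be set beside those of the controls. Downregulated proteases and inhibitors numbered 16 in controls and 17 in exposed cells, immediate early genes 13 and 13, hypoxia and glycolysis genes 20 and 18, and junction genes 15 and 13. Upregulated interferon-stimulated genes numbered 12 and 12, and cholesterol genes 6 and 11. In the fit of all 15 samples edgeR called no difference in the 43 lists. At an unadjusted p under 0.05 the highest number in 1 list was 4, in the HOX list (31 tested) and among the 14 biomarkers. Of all 16740 genes tested, 644 reached that p. The biomarkers were chosen by the study for differences between exposed and control cells in these samples. KRT7 fell from 1215 and 1414 CPM to 23.4 and 12.7 CPM in controls (log2 fold change -6.19), COL6A2 rose from 4.12 and 5.67 CPM to 157 and 147 CPM (4.95), FN1 fell from 2490.2 and 2149 CPM to 212 and 211 CPM (-3.45), and NCAM1 rose from 0.312 and 0.280 CPM to 20.6 and 27.1 CPM (6.31). Side by side, the 15-week levels of COL6A2 and FN1 lay close together in exposed and control cells, KRT7 was lower in both exposed samples than in both controls and NCAM1 was higher, and for none of the 4 did the difference pass the adjusted threshold in the fit of all 15 samples (unadjusted p of 0.327, 0.91, 0.0032 and 0.00754).

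Among the biomarkers the 2 changes were least alike in ITGB8 and VCAN. ITGB8 went from 74.3 and 69.6 CPM to 17.5 and 16.7 CPM in controls, a log2 fold change of -2.07 against -0.85 in exposed cells, and the difference of 1.23 (95% interval 0.31 to 2.15) had an unadjusted p of 0.00821. VCAN, a large proteoglycan, went from 1.80 and 1.47 CPM to 6.25 and 22.5 CPM in controls and from 2.04 and 2.36 CPM to 4.50 and 6.36 CPM in exposed cells, a difference of -1.84 (95% interval -3.43 to -0.24, unadjusted p = 0.0193). The 2 controls at 15 weeks stood far apart for VCAN. Neither difference passed the adjusted threshold. The study chose this list for differences from controls, at 15 weeks among other times, in these same samples. These p-values are therefore not independent evidence.

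**Figure D4:**
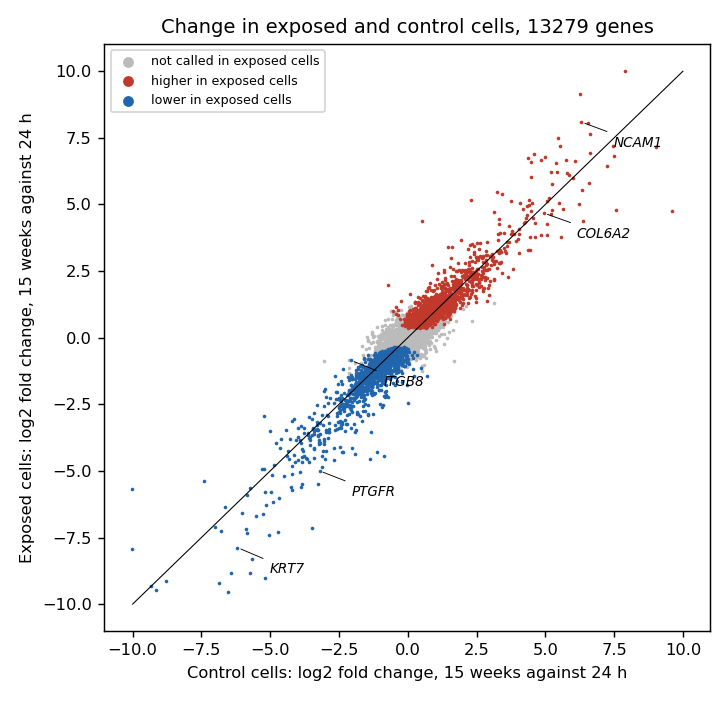
Each of the 13279 genes with at least 1 CPM over the 4 exposed samples is placed by its log2 fold change at 15 weeks against 24 h in control cells (x axis) and in exposed cells (y axis), coloured by its call in exposed cells (red higher, blue lower, grey not called). The line marks equal change; KRT7, at -6.19 in controls and -7.88 in exposed cells, and PTGFR lie below it and COL6A2, at 4.95 and 4.67, lies close to it.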

How the data were processed

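RNA of the 15 samples was prepared with a TruSeq Stranded Total RNA kit after ribosomal RNA removal. The authors deposited raw read counts per gene, made with bcl2fastq and featureCounts on build hg38 per the submitters' processing notes; versions, and the handling of strand and multi-mapped reads, are not given in the sources used here. Genes of low count were removed with filterByExpr, libraries were scaled by TMM, and 6 condition means were fitted with edgeR 4.0.16 in R 4.3.3 (quasi-likelihood test, Benjamini-Hochberg, threshold 0.05). All 15 samples entered the fit. Total counts set the precision. Lower bounds put the floor group at 3 counts per library and do not cover counting error. Genes that already had close to 3 counts therefore lie close to their bound. Alternatives used DESeq2 1.42.0, limma 3.58.1 and sva 3.50.0, other filters, scalings and sample sets. The steps were tested on simulated data. Named genes were the 12 largest changes each way with at least 1 CPM on average, up to 5 called members per list by size of change, cell type markers and the study's biomarkers; exceptions are stated, and some genes that the rule names are not reported here. The comparison, the 43 lists and the 7 marker lists were chosen with earlier results of these data known.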

Additional observations from a re-analysis of the deposited data

Results flagged for a closer look

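KRT7 and PTGFR were singled out because their change between 24 h and 15 weeks differed between exposed and control cells in a test of the difference itself, made in the fit of the 8 samples of batch 1. That fit called 4 genes, and the other two, Entrez genes 284702 and 105376337, which the table gives without a symbol, had differences of the opposite sign (1.18 and 1.35, edgeR adjusted p of 0.0371 and 0.0313), with log2 fold changes of 0.85 and 1.04 in exposed cells and -0.33 and -0.31 in controls. KRT7 fell by 7.86 on the log2 scale in exposed cells and by 6.17 in controls, a difference of -1.69 (standard error 0.259, edgeR adjusted p = 0.0313). PTGFR, the prostaglandin F receptor gene, went from 19.1 and 16.7 CPM to 0.620 and 0.487 CPM in exposed cells and from 20.6 and 23.7 CPM to 2.56 and 2.24 CPM in controls, a difference of -1.80 (standard error 0.295, edgeR adjusted p = 0.0371). In both genes the 2 exposed samples at 15 weeks lay below the 2 controls. PTGFR and the 2 genes without a symbol were chosen after their values were seen. In the fit of all 15 samples none of the 4 differences passed the threshold (edgeR adjusted p = 0.999912 for each, unadjusted p of 0.00320 for KRT7 and 0.0105 for PTGFR).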

How the results depend on the processing

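For exposed cells, control cells and their difference in turn, the number of genes called moved to 7031, 6841 and 4 in the fit of the 8 samples of batch 1, and to 6564, 6549 and 5 with limma-voom and 2 surrogate variables. With only the 4 samples of a contrast it was 6916 in exposed and 6800 in control cells. By construction it fell to 2548 and 2472 at an adjusted p under 0.01, and to 2242 and 2168 with at least a 2-fold change by the fitted folds, in which genes at the floor are not held to their bound. Leaving out 1 library gave 2526 to 2919 in exposed cells, 2462 to 3960 in control cells and 0 to 0 for the difference. DESeq2, limma-voom, the other filters and scalings, thinning to the smallest library and removal of 6 small noncoding RNAs kept each count within 1.5 times. Of the 214 named genes that were called, 146 kept the call in every alternative. FGF2, not called, ranged from -0.19 to 0.0465 on the log2 scale with 1 exposed library left out, and changed sign without exposed replicate 1 at 24 h (edgeR adjusted p = 0.930); the cause was not tested. With the replicate number as a block, 4130 genes were called in exposed cells, 3936 in control cells and 0 for the difference. Samples that share a number did not deviate together (correlations from -0.10 to 0.04), so the numbers do not pair them. Of the list counts, 365 of 1548 moved by over 1.5 times. Depth limits genes under 1 CPM, whose median standard error was 0.689.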
